A study of Mus musculus with 16 samples.

Results

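Oligodendrocytes wrap the axons of the brain in myelin, and 33 genes that mark these cells and their precursors were followed in the striatum of 16 mice. They are 33 of the 24421 genes in the count tables and were chosen by name: 12 code for proteins of the sheath and its junctions, 7 for lipid and metabolic enzymes and carriers, 5 for transcription factors, 7 for signalling and cytoskeletal proteins, and 2, Pdgfra and Cspg4, mark the precursors. The study injected a Foxp2 virus or a control virus into BACHD and control mice and sequenced mRNA of the striatum at 13 months of age. It had 4 mice in each of 4 groups: control genotype with control virus (Con+Con), control genotype with Foxp2 virus (Con+Foxp2), BACHD with control virus (BACHD+Con) and BACHD with Foxp2 virus (BACHD+Foxp2). BACHD mice carry a large genomic transgene with a mutant human huntingtin gene and are a model of Huntington disease. Foxp2 is a forkhead transcription factor made by striatal projection neurons. Every mouse received a virus, so no group shows the striatum without injection. The labels do not name the type of virus, the promoter that drives Foxp2, the cells it enters or the time from injection to harvest.

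A myelin sheath is built from compacted cell membrane, held together by a few abundant proteins and rich in galactolipids and cholesterol. Precursors that carry the receptor Pdgfra divide and mature under Olig2, Olig1 and Sox10, and Myrf then switches on the genes of the sheath. In the striatum much of the myelin runs in the fibre bundles that cross it. In bulk tissue fewer oligodendrocytes and less RNA in each of them cannot be told apart.

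Libraries held 2660395 to 3669748 reads assigned to genes, with a median of 3014099.5. Levels are given as CPM, read counts scaled to a common library total with edgeR's TMM factors, and 3 reads corresponded to 0.819 to 1.16 CPM. Foxp2 stood at 87.3 to 153 CPM in the 8 mice with control virus, at 3500 to 4389 CPM in Con+Foxp2 and at 1291 to 1929 CPM in BACHD+Foxp2, with no overlap between the last pair of groups. Htt was at 470 to 767 CPM in the BACHD mice and at 246 to 323 CPM in the control mice. Of 24421 genes, 13563 passed the filter on low counts, among them all 33 oligodendrocyte genes. Each comparison was tested over all 13563 with edgeR's quasi-likelihood test, and a gene was called where its Benjamini-Hochberg adjusted p was under 0.05.

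All 33 genes had reads in all 16 libraries, the fewest being 28 reads of Aspa. Together they took 0.375% to 1.05% of the reads of a library. Mean levels ran from 19.4 CPM for Opalin to 2443 CPM for Mbp, with a median of 103 CPM. Per kilobase of exon, Mbp was again the most abundant at 288 CPM, followed by Enpp2 at 163, Mal at 87.2, Bcas1 at 85.3 and Cnp at 79.3. The precursor gene Cspg4 was the lowest per kilobase at 2.17 CPM. The 12 sheath genes, Mbp among them, summed to 1922 to 5903 CPM per library and the precursor pair to 73.6 to 122 CPM. These genes are themselves the markers and the lists differ in length, so the sums do not test the label. Schwann cells, which make the myelin of peripheral nerves, share several of these genes. Their own markers summed to 4.03 to 49.7 CPM, and Pmp2 and Foxd3 were at 0 in every library.

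**Figure D1:**
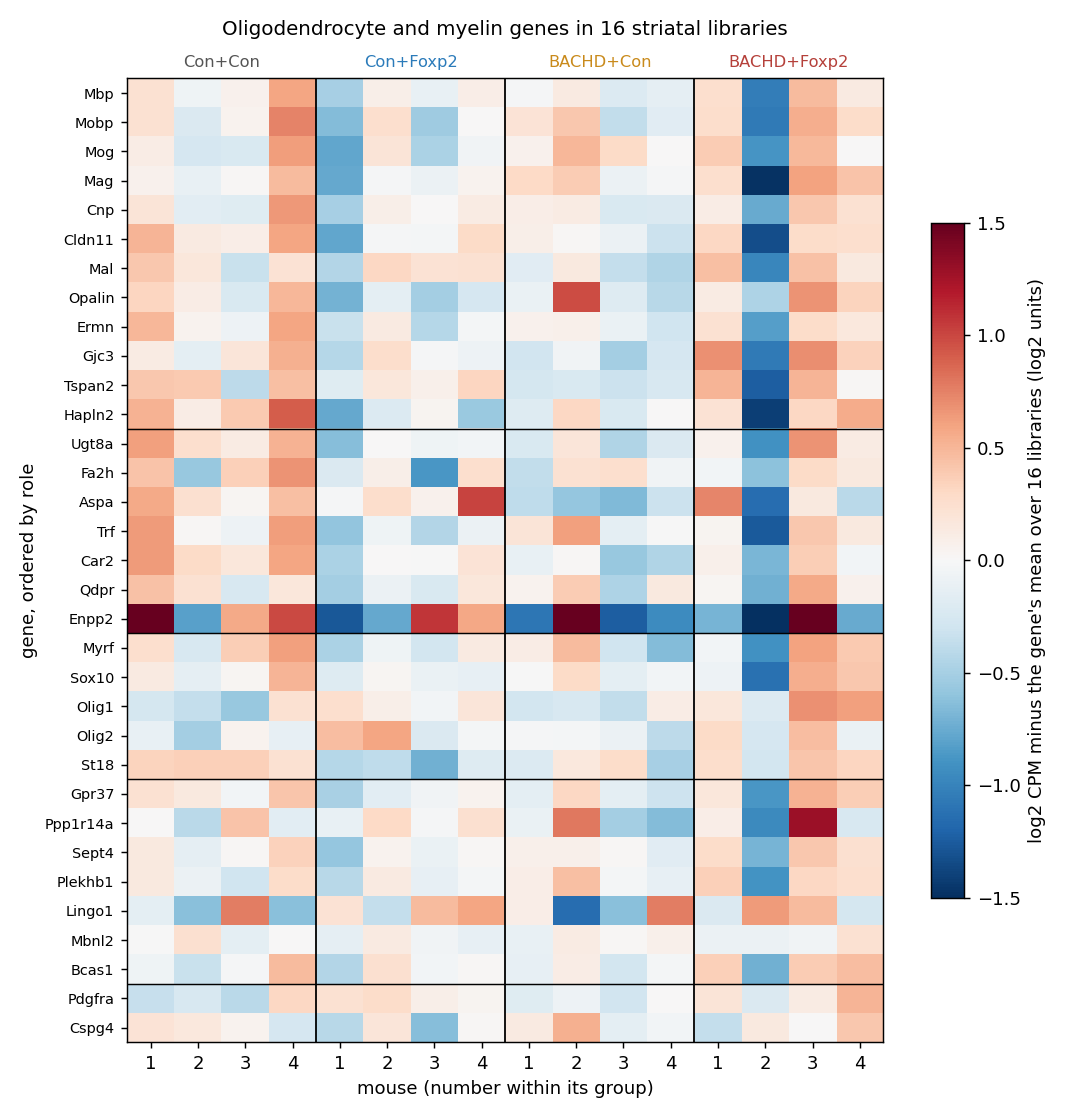
Level of each of the 33 genes (rows, ordered by role and separated by lines) in each of the 16 mice (columns, by group) as log2 CPM minus the gene's mean over the 16 libraries, with the colour scale ending at -1.5 and 1.5. The column of BACHD+Foxp2 mouse 2 is blue for nearly all mature oligodendrocyte genes, and the rows of Enpp2 and Lingo1 follow patterns of their own.

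BACHD+Foxp2 mouse 2 stood apart and bears on every result that includes its group. It had the lowest level of all 16 libraries for 24 of the 33 genes, against 8.14% of all tested genes that were lowest there. Its 33 genes lay at a median of 0.87 log2 units under their means over all mice, and its 12 sheath genes at 1.04 under. Mag, an adhesion protein of the innermost, axon-facing membrane, was at 54.0 CPM in this mouse and at 180.3 to 229 CPM in the other mice of its group. The 9 genes that were not lowest there were Opalin, Fa2h, Olig1, Olig2, St18, Lingo1, Mbnl2, Pdgfra and Cspg4, a set that holds both precursor markers. The precursor pair summed to 81.8 CPM in it, within the range of the other libraries. Its depth was 3084529 gene reads, 23.9% of its listed reads were assigned to genes, and its median correlation with the other libraries was 0.932, in a range of 0.921 to 0.944 over all libraries. Its cortical excitatory neuron markers summed to 1428 CPM and its striatal projection neuron markers to 3631 CPM, in ranges of 212 to 1793 and 3174 to 6541 CPM over all mice. The part of other cell types in the low values of this mouse was not tested. Results are given with all 16 mice first and without this mouse where that matters. It was singled out after its values were seen, and leaving out the lowest library of a group raises that group by construction.

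The sheath genes are shown with a stretch of regulatory sequence because Myrf, the factor that switches them on, recognises a short motif. Promoters of 22 of the 33 genes were matched in RefSeq (build GRCm38.p6). Mbp, Fa2h, Trf, Car2, Enpp2, Myrf, Sox10, Olig1, St18, Sept4 and Bcas1 were not searched. In the 250 bases before the start, on both strands, the strings CTGGCAC or CTGGTAC of the Myrf motif were found in 4 of 22 genes (18.2%) and in 6.79% of the 27025 genes of the table. All 4 were sheath genes: Mog, Mag, Cnp and Hapln2, with the motif 83, 68, 81 and 144 bases before the RefSeq start. The string ACAAAG of SOX factors was in 7 of 22 (31.8%) and in 18.6% of all genes. The forkhead string TGTTTAC was in 0 of 22 and in 3.54% of all genes. None of these strings contains another, and a match is a string and not a proven site. The 4 stretches follow in the direction of the gene, with the Myrf motif or its reverse complement in capitals. Bases that GENCODE counts to the gene itself were left out at the end: 0, 10, 35 and 72 bases in the same order. In the stretches of Mag, Cnp and Hapln2 the motif is therefore nearer to the printed end than to the RefSeq start. They lie at chr17:37023399-37023648 (minus strand), chr7:30914874-30915113 (minus strand, 1 of 3 starts), chr11:100574689-100574903 (plus strand) and chr3:88027584-88027761 (minus strand).
Mog: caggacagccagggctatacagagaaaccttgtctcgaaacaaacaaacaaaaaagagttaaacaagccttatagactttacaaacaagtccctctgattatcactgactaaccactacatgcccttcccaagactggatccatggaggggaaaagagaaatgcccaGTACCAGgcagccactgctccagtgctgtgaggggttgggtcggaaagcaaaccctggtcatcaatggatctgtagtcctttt
Mag: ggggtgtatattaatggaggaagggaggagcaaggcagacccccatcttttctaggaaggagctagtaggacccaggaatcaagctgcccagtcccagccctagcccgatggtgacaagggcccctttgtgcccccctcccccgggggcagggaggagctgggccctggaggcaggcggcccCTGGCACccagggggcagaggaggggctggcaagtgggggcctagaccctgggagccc
Cnp: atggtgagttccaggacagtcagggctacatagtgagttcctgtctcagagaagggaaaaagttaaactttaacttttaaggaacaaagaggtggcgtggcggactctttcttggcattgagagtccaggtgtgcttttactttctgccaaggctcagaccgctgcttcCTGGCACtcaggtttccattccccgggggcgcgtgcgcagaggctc
Hapln2: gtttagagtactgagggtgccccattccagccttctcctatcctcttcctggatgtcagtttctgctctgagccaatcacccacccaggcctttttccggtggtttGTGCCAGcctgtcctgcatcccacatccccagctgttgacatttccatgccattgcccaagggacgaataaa

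In mice of control genotype, the Foxp2 virus went with lower values of the mature oligodendrocyte genes, but none of the 33 passed the test. The median log2 fold change of the 33 was -0.30, with 27 lower and 6 higher, beside a median of -0.0037 over all genes. All 12 sheath genes were lower (median -0.33), as were 6 of 7 metabolic genes (median -0.48), 3 of 5 transcription factors and 5 of 7 signalling genes, while the precursor pair split. Of the 33, 0 were called, where 0.229% of all tested genes were. At an unadjusted p under 0.05 there were 6 of 33, all lower, against 7.04% of all genes. In 3 of 33 genes, Hapln2, Ugt8a and St18, the groups did not overlap, against 5.01% of all genes. DESeq2 and limma voom also called 0 of the 33. Without Con+Con mouse 4, the mouse highest in 10 of the 33 genes, the median was -0.17. The count of 6 also moved with single mice: it was 2 without Con+Con mouse 1 or Con+Foxp2 mouse 1 and 11 without BACHD+Foxp2 mouse 2. It was 12 with the 8 libraries alone and 10 without a filter.

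St18, a zinc finger transcription factor of the oligodendrocyte lineage (chromosome 1, 6487231 to 6860940, GRCm38), came nearest to the threshold. It was at 51.0, 51.8, 51.8 and 47.2 CPM in Con+Con and at 29.9, 31.1, 24.5 and 35.2 CPM in Con+Foxp2. The BACHD mice had 35.1, 44.9, 48.7 and 28.5 CPM with control virus and 48.3, 33.4, 53.7 and 50.4 CPM with Foxp2 virus. The control mice thus lay in separate ranges by virus, with 50.5 ± 2.17 against 30.2 ± 4.40 CPM (mean ± SD, n = 4), and the BACHD mice did not. In control mice the edgeR difference was -0.74 log2 units (SE 0.19, adjusted p = 0.141), with a 95% interval of -1.13 to -0.34. Over all alternatives its adjusted p in this comparison ran from 0.0524 to 0.469.

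Hapln2 links hyaluronan and proteoglycans in the matrix around the nodes of Ranvier (chromosome 3, 88021750 to 88027583). Its promoter is the last of those printed above. It was at 52.5, 39.6, 47.9 and 68.8 CPM in Con+Con and at 21.6, 31.7, 37.8 and 24.8 CPM in Con+Foxp2. With control virus the BACHD mice had 32.0, 45.3, 31.2 and 36.6 CPM, and with Foxp2 virus 42.4, 13.7, 45.4 and 53.9 CPM. The highest Con+Foxp2 mouse was under the lowest Con+Con mouse, and the single lowest value of all was BACHD+Foxp2 mouse 2. The edgeR difference in control mice was -0.85 log2 units (SE 0.28, adjusted p = 0.384).

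Ugt8a makes galactosylceramide, the main galactolipid of myelin (chromosome 3, 125865271 to 125938619). It was at 109, 85.3, 77.5 and 102 CPM in Con+Con and at 45.7, 71.7, 68.3 and 69.3 CPM in Con+Foxp2, without overlap. BACHD+Con mice had 61.2, 81.3, 52.0 and 61.7 CPM and BACHD+Foxp2 mice 75.0, 38.0, 114 and 77.5 CPM. By edgeR the virus difference in control mice was -0.55 log2 units (SE 0.23, adjusted p = 0.603). Car2, a carbonic anhydrase of oligodendrocytes (chromosome 3, 14886273 to 14900770), was at 239.9, 189, 174 and 232 CPM in Con+Con, and its Con+Foxp2 values were 111, 154, 153 and 177 CPM. These ranges overlapped by 1 mouse of each group (log2 fold change -0.48, adjusted p = 0.524, edgeR). BACHD+Con mice had 142, 156, 104 and 113 CPM and BACHD+Foxp2 mice 162, 95.9, 199 and 149.6 CPM, so Con+Con was the highest group on average.

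In the authors' deposited table for Con+Con to Con+Foxp2, 2 of the 33 genes had an adjusted p under 0.05: St18 with a log2 fold change of -0.60 and an adjusted p of 0.0191, and Hapln2 with -0.63 and 0.0468. Trf had an adjusted p of 0.0614 there. The authors' deposited table had the same split of 27 lower and 6 higher, with a median of -0.21. For Enpp2 it gave -0.19 (SE 0.17), where edgeR gave -0.86 (SE 0.75). The fold changes of the authors and of edgeR may therefore differ in scale, and their sizes are not compared. These values come from the same libraries and are another fit to them, not further evidence.

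**Figure D2:**
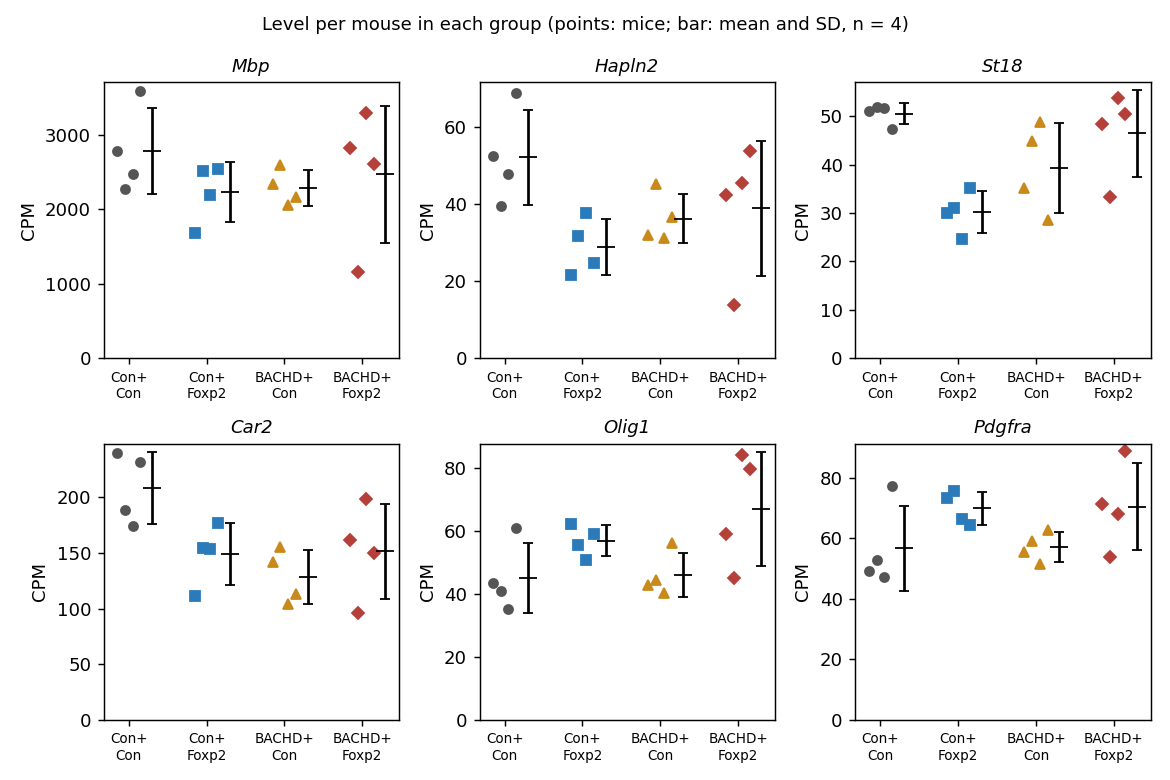
CPM of 6 genes in each mouse (points, 4 per group), with the group mean and SD beside them, on linear axes from 0. St18 and Hapln2 are separate between Con+Con and Con+Foxp2, Car2 is highest in Con+Con, Olig1 and Pdgfra tend to be higher with Foxp2 virus in both genotypes, and BACHD+Foxp2 mouse 2 is the low point of its group for Mbp, Hapln2 and Car2.

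In BACHD mice the Foxp2 virus went with little shift of the mature genes, and again none of the 33 passed. The median log2 fold change was 0.11, with 24 higher and 9 lower, beside 0.00082 over all genes. Of the 12 sheath genes 10 were higher (median 0.089), and all 5 transcription factors were (median 0.24). The metabolic genes had a median of -0.011. Of the 33 genes, 0 were called, where 0.243% of all genes were. At an unadjusted p under 0.05 there were 2, Olig1 and Gjc3, both higher, against 7.73% of all genes, and 0 had groups that did not overlap, against 4.14%. DESeq2 and limma voom called 0 of the 33. The median depended on single mice: it was 0.33 without BACHD+Foxp2 mouse 2, 0.22 without BACHD+Con mouse 2, 0.060 without mouse 4 of that group, 0.042 without BACHD+Foxp2 mouse 4 and -0.010 without BACHD+Foxp2 mouse 3. With limma voom it was 0.046, with 20 higher and 13 lower. The unadjusted count was 1 with limma voom, with the replicate number as a block and with the 8 libraries alone. It was also 1 without the 3 libraries lowest in cortical markers and without BACHD+Con mouse 1 or 3. Without BACHD+Foxp2 mouse 1, 3 or 4 it was 1 as well, and without BACHD+Con mouse 4 it was 3. The gene counted without BACHD+Foxp2 mouse 3 was lower with Foxp2 virus, and those counted in the other settings named were all higher. In the authors' deposited table for BACHD+Con to BACHD+Foxp2 the lowest adjusted p was 0.575, for Olig1.

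Olig1, a helix-loop-helix factor of the lineage (chromosome 16, 91269772 to 91271933), had the lowest p. It was at 43.0, 44.3, 40.3 and 56.3 CPM in BACHD+Con and at 58.9, 45.2, 84.0 and 79.7 CPM in BACHD+Foxp2. In control mice it was at 43.4, 40.9, 35.0 and 61.0 CPM with control virus and at 62.1, 55.6, 50.7 and 59.0 CPM with Foxp2 virus. In both genotypes the Foxp2 mice were higher on average and the ranges overlapped. The edgeR difference was 0.54 log2 units (SE 0.20, adjusted p = 0.459) in BACHD mice and 0.34 log2 units (SE 0.20, adjusted p = 0.809) in control mice. Gjc3 codes for a connexin of myelin (chromosome 5, 137953461 to 137963098) and was at 61.5, 72.7, 52.7 and 62.8 CPM in BACHD+Con and at 121, 36.0, 121 and 95.7 CPM in BACHD+Foxp2. The ranges overlapped only through BACHD+Foxp2 mouse 2. In Con+Con it was at 81.7, 67.9, 85.2 and 109 CPM and in Con+Foxp2 at 56.0, 90.3, 73.9 and 71.5 CPM. Its edgeR difference in BACHD mice was 0.58 log2 units (SE 0.25, adjusted p = 0.583), and without mouse 2 it was 0.84 log2 units (SE 0.18, adjusted p = 0.051).

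Without BACHD+Foxp2 mouse 2, 12 of the 33 genes had an unadjusted p under 0.05 in BACHD mice, all higher with Foxp2 virus, against 8.26% of all genes. None was called, where 0.188% of all genes were. The genes share their cells and their libraries, so these are not independent results.

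The virus effect was therefore compared between the genotypes directly, as the interaction in the same fit. Foxp2 itself was at 3500 to 4389 CPM in Con+Foxp2 and at 1291 to 1929 CPM in BACHD+Foxp2. Genotype and Foxp2 level therefore cannot be told apart in this comparison. In 30 of the 33 genes the effect was more positive in BACHD mice than in control mice, with a median difference of 0.35 log2 units, beside 0.010 over all genes. This held for 12 of 12 sheath genes (median 0.51), 7 of 7 metabolic genes (median 0.38), 4 of 5 transcription factors (0.28), 6 of 7 signalling genes (0.16) and 1 of the precursor pair. No gene was called: 0 of 33, with 0% of all genes. At an unadjusted p under 0.05 there were 5 of the 33, St18, Car2, Ugt8a, Hapln2 and Gjc3, all more positive in BACHD mice, against 3.8% of all genes. DESeq2 called 3 genes of the whole table and limma voom 0, none of them among the 33. The edgeR difference of effects was 0.98 for St18 (SE 0.27, adjusted p = 1), 0.72 for Car2 and 0.80 for Ugt8a.

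Without BACHD+Foxp2 mouse 2 the median difference of effects was 0.57, with 31 of 33 genes more positive in BACHD mice. An unadjusted p under 0.05 was then reached by 19 of 33 genes, against 4.95% of all genes. The lowest adjusted p was that of Gjc3 (log2 fold change 1.08, SE 0.24, adjusted p = 0.377), and again 0% of all genes were called. St18 followed (log2 fold change 1.10, SE 0.26, adjusted p = 0.389). Without the 3 libraries lowest in cortical markers, the median difference was 0.34. Leaving out each of the 16 mice in turn gave medians from 0.24 to 0.57. The count of 5 at an unadjusted p under 0.05 was 2 without Con+Foxp2 mouse 1 or BACHD+Foxp2 mouse 3, 3 without Con+Con mouse 4, with limma voom and with the replicate number as a block, 8 without a filter and 9 without BACHD+Con mouse 2.

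**Figure D3:**
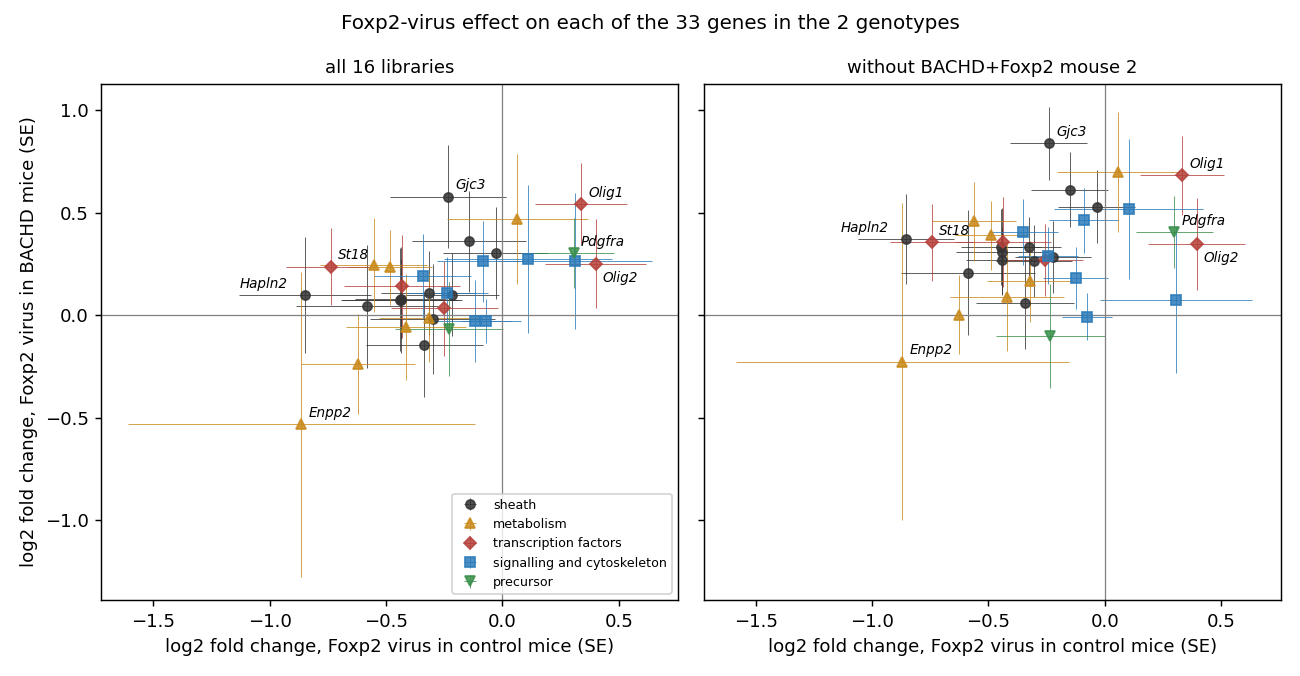
Log2 fold change of each of the 33 genes with Foxp2 virus in control mice (horizontal) and in BACHD mice (vertical), with SE bars and symbols by role, for all 16 libraries (left) and without BACHD+Foxp2 mouse 2 (right). Most mature genes lie left of 0, near 0 on the vertical axis with all mice and above 0 without that mouse, while Olig1, Olig2 and Pdgfra lie above 0 on both axes.

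Under control virus, BACHD mice had lower values of the mature genes than control mice, and none of the 33 passed. The median log2 fold change was -0.20, with 25 lower and 8 higher, beside 0.00054 over all genes. All 7 metabolic genes were lower (median -0.35), as were 10 of 12 sheath genes (median -0.30). Of the 33, 0 were called, where 0.0147% of all genes were. An unadjusted p under 0.05 was reached by 4, Car2, Aspa, Ugt8a and Tspan2, all lower, against 3.44% of all genes. The groups did not overlap for 3, Cldn11, Aspa and Car2, against 2.43%. DESeq2 and limma voom called 0 of the 33. This comparison and that of the virus in control mice share the Con+Con mice, so they are not separate evidence of a high level in that group. The median was -0.34 without BACHD+Con mouse 2, -0.11 without Con+Con mouse 4 and -0.092 when BACHD+Con mouse 3 was left out. The count of 4 was 2 without Con+Con mouse 1 or mouse 4 and 8 without BACHD+Foxp2 mouse 2. It was also 8 with the 8 libraries alone and without a filter.

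Car2 had the lowest p, with the values given above: 174 to 239.9 CPM in Con+Con against 104 to 156 CPM in BACHD+Con. Its edgeR difference was -0.70 log2 units (SE 0.18, adjusted p = 1), at an unadjusted p of 0.000986. In the authors' deposited table for Con+Con to BACHD+Con Car2 had a log2 fold change of -0.55 and an adjusted p of 0.122, and none of the 33 was under 0.05. Aspa cleaves N-acetylaspartate and so supplies acetate for myelin lipids (chromosome 11, 73304992 to 73329596). It was at 30.1, 23.8, 20.6 and 27.5 CPM in Con+Con and at 15.5, 13.5, 12.8 and 16.2 CPM in BACHD+Con, without overlap. With Foxp2 virus it was at 19.96, 24.2, 21.2 and 41.0 CPM in control mice and at 33.7, 9.16, 22.4 and 15.3 CPM in BACHD mice, and these ranges overlapped. By edgeR the genotype difference under control virus was -0.82 log2 units (SE 0.31, adjusted p = 1). Ugt8a followed at -0.55 log2 units (adjusted p = 1) in the same test. Tspan2, a tetraspanin of the sheath, was at 115, 114, 66.2 and 119 CPM in Con+Con and at 72.2, 74.0, 69.5 and 73.2 CPM in BACHD+Con. With Foxp2 virus it was at 76.6, 97.8, 91.5 and 109 CPM in control mice and at 123, 37.0, 124 and 87.7 CPM in BACHD mice. Con+Con mouse 3, under all BACHD+Con mice, was the sole overlap of the groups with control virus.

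Under Foxp2 virus the direction was the other way, BACHD above control, and none of the 33 passed here either. These groups also differed in Foxp2 level, which cannot be told apart from genotype here. The median log2 fold change was 0.18, with 28 higher and 5 lower, beside 0.0091 over all genes. Of the sheath genes 11 of 12 were higher (median 0.24). Of the 33, 0 were called, where 0.059% of all genes were. An unadjusted p under 0.05 was reached by 1, St18, against 4.18% of all genes, and 0 had groups without overlap, against 3% of all genes. DESeq2 and limma voom called 0 of the 33. St18 differed by 0.62 log2 units (SE 0.19, adjusted p = 0.997) in edgeR. Opalin, a transmembrane protein of oligodendrocytes, was at 11.3, 16.7, 12.9 and 15.6 CPM in Con+Foxp2 and at 20.1, 13.4, 29.6 and 23.3 CPM in BACHD+Foxp2. With control virus it was at 23.0, 19.9, 15.8 and 26.0 CPM in control mice and at 17.2, 36.3, 16.1 and 13.9 CPM in BACHD mice. Its edgeR difference under Foxp2 virus was 0.61 log2 units (SE 0.30, adjusted p = 0.998), and that of Hapln2 was 0.42 log2 units (adjusted p = 0.998).

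Without BACHD+Foxp2 mouse 2 the median under Foxp2 virus was 0.38, with 30 higher and 3 lower. An unadjusted p under 0.05 was then reached by 17 of the 33, against 5.46% of all genes, and 0 were called, where 0.0433% of all genes were. Without BACHD+Foxp2 mouse 3, the mouse highest in 11 of the 33 genes, the median was 0.048, and without Con+Foxp2 mouse 1 it was 0.11. With limma voom it was also 0.11, with 23 higher and 10 lower.

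Averaged over both genotypes, none of the 33 genes passed the test of the Foxp2 virus. The median log2 fold change was -0.11, with 23 lower and 10 higher. The transcription factors had 2 higher and 3 lower, and the precursor pair 1 each. Of the 33, 0 were called, where 1.05% of all genes were. An unadjusted p under 0.05 was reached by 4, against 10.8% of all genes: Olig1, Olig2 and Pdgfra were higher and Trf was lower. DESeq2 and limma voom called 0 of the 33. The edgeR difference was 0.44 log2 units (SE 0.14, adjusted p = 0.177) for Olig1. The median was -0.18 without BACHD+Foxp2 mouse 3, -0.051 without Con+Con mouse 4, -0.051 without BACHD+Con mouse 2 and -0.020 without BACHD+Foxp2 mouse 2. Without the 3 libraries lowest in cortical markers it was -0.0097, with 16 higher and 17 lower. The unadjusted count was 2 with DESeq2, without Con+Con mouse 1 and without those 3 libraries.

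Pdgfra, the growth factor receptor of precursors (chromosome 5, 75152292 to 75198215), was at 49.3, 52.8, 47.3 and 77.4 CPM in Con+Con and at 73.4, 75.6, 66.3 and 64.4 CPM in Con+Foxp2. It was at 55.3, 59.1, 51.4 and 62.8 CPM in BACHD+Con and at 71.3, 53.7, 68.1 and 89.0 CPM in BACHD+Foxp2. In the control mice, Con+Con mouse 4 alone lay above all Con+Foxp2 mice. Its virus difference over both genotypes was 0.31 log2 units (SE 0.12, adjusted p = 0.343) by edgeR. Cspg4, a membrane proteoglycan of precursors that pericytes also carry, was at 29.2, 28.3, 26.4 and 21.2 CPM in Con+Con and at 19.0, 28.8, 16.2 and 25.7 CPM in Con+Foxp2. In BACHD mice it was at 27.8, 36.7, 22.8 and 24.7 CPM with control virus and at 19.8, 28.1, 25.5 and 33.5 CPM with Foxp2 virus. All 4 ranges overlapped, and the virus difference over both genotypes was -0.15 on the log2 scale, against the direction of Pdgfra. Olig2, which lies next to Olig1 on chromosome 16, had group means of 27.2 ± 4.29, 35.9 ± 9.41, 27.8 ± 3.19 and 33.2 ± 7.60 CPM (SD, n = 4) in the groups as ordered at the start. Its virus difference over both genotypes was 0.33 log2 units (adjusted p = 0.441) by edgeR.

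Trf, the iron carrier transferrin that oligodendrocytes make in the brain (chromosome 9, 103204001 to 103230444), was at 366, 238, 222 and 364 CPM in Con+Con and at 156, 224, 173 and 222 CPM in Con+Foxp2. It was at 268, 360.4, 212 and 233 CPM in BACHD+Con and at 242, 98.5, 312 and 259.6 CPM in BACHD+Foxp2. BACHD+Foxp2 mouse 2 was the lowest of all. The virus difference over both genotypes was -0.43 log2 units (SE 0.17, adjusted p = 0.348) by edgeR.

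Averaged over both viruses, BACHD and control mice hardly differed, with a median log2 fold change of 0.014, 17 higher and 16 lower. Leaving out each mouse in turn moved this median between -0.084 and 0.094, and limma voom gave -0.027. Of the 33, 0 were called, where 0.0369% of all genes were, and DESeq2 and limma voom also called 0. An unadjusted p under 0.05 was reached by Aspa (log2 fold change -0.61, adjusted p = 0.999, edgeR) and Car2 (log2 fold change -0.34, adjusted p = 0.999), both lower in BACHD mice, against 4.05% of all genes. Without BACHD+Foxp2 mouse 2 there were 5 genes at that p, 3 of them higher in BACHD mice, against 4.25% of all genes. With all mice Tspan2 came next after Aspa and Car2, at -0.27 log2 units (adjusted p = 0.999) in the same edgeR test.

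Mbp, the protein that draws the inner faces of the myelin membrane together, had the most reads of the sheath genes. It was at 2786, 2273, 2479 and 3584 CPM in Con+Con and at 1684, 2517, 2191 and 2536 CPM in Con+Foxp2. In BACHD mice it was at 2343, 2601, 2055 and 2159.8 CPM with control virus and at 2825, 1155, 3294 and 2608 CPM with Foxp2 virus. All 4 ranges overlapped, and the lowest mouse of the BACHD+Foxp2 group was under all others. The virus difference in control mice was -0.32 log2 units (SE 0.21, adjusted p = 0.849) by edgeR, with a 95% interval of -0.74 to 0.11, and in BACHD mice 0.11, with an interval of -0.31 to 0.53. Mobp, a small cytoplasmic protein of compact myelin, was at 433, 319, 384 and 621 CPM in Con+Con and at 235, 439.8, 256 and 369.9 CPM in Con+Foxp2. It was at 425, 488, 286 and 329 CPM in BACHD+Con and at 444, 177, 541 and 449 CPM in BACHD+Foxp2. For both Mbp and Mobp, Con+Con mouse 4 was the highest and BACHD+Foxp2 mouse 2 the lowest of all 16 mice.

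The remaining sheath genes were Mog on the outer face of the sheath, Mag, Cnp in its uncompacted parts, Cldn11 of its tight junctions, Mal of its lipid rafts and Ermn of the oligodendrocyte cytoskeleton. With Foxp2 virus their log2 fold changes in control mice were -0.34, -0.30, -0.22, -0.44, -0.028 and -0.44, in that order. In BACHD mice they were -0.15, -0.019, 0.10, 0.077, 0.30 and 0.080. All 6 were lower in control mice and 4 of 6 higher in BACHD mice, and no adjusted p was under 0.05. Of the metabolic group, Fa2h, which hydroxylates the fatty acids of myelin galactolipids, had a log2 fold change of -0.42 with the virus in control mice and of -0.056 in BACHD mice. For Qdpr, which recycles the cofactor tetrahydrobiopterin, these were -0.31 and -0.011.

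Among the transcription factors Myrf and Sox10 had the most reads. Myrf was at 167, 119, 181 and 216 CPM in Con+Con and at 101, 135, 116 and 154 CPM in Con+Foxp2. In BACHD+Con it was at 153, 195, 115 and 89.8 CPM and in BACHD+Foxp2 at 137, 75.3, 213 and 184 CPM. The ranges of all 4 groups overlapped (log2 fold change -0.43, adjusted p = 0.805 for the virus in control mice, edgeR). Sox10 was at 75.2, 62.4, 70.1 and 98.2 CPM in Con+Con and at 59.9, 70.0, 64.0 and 63.1 CPM in Con+Foxp2. It was at 68.7, 83.9, 62.1 and 67.1 CPM in BACHD+Con and at 65.5, 31.7, 100.1 and 91.2 CPM in BACHD+Foxp2. BACHD+Foxp2 mouse 2 was lowest for both factors, as it was for 11 of the 12 sheath genes.

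The signalling and cytoskeletal genes had a median log2 fold change of -0.084 with the virus in control mice. Mbnl2, a splicing regulator that neurons also express, had the most reads and the smallest spread over mice of all 33, with an SD of 0.13 log2 units against a median of 0.41 over the 33. It was at 352, 419.5, 320.2 and 356 CPM in Con+Con and at 323, 389, 341 and 324 CPM in Con+Foxp2. In the BACHD mice it was at 329, 385, 359.6 and 373 CPM with control virus and at 333, 332, 341 and 414 CPM with Foxp2 virus. BACHD+Foxp2 mouse 2 was not low for it. Bcas1, a protein of early myelinating cells, was at 301, 249, 311 and 437 CPM in Con+Con and at 232, 369.8, 305 and 318 CPM in Con+Foxp2. It was at 289, 341, 259 and 307 CPM in BACHD+Con and at 403, 189.8, 409 and 433 CPM in BACHD+Foxp2, where mouse 2 was far under the others. The orphan receptor Gpr37, the myosin phosphatase inhibitor Ppp1r14a, the septin Sept4 and the membrane protein Plekhb1 had log2 fold changes of -0.34, 0.11, -0.24 and -0.12 with the virus in control mice. In BACHD mice these were 0.19, 0.27, 0.11 and -0.028.

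Enpp2 and Lingo1 were each set beside a marker of another cell type. Enpp2, the enzyme autotaxin that releases lysophosphatidic acid, is made by oligodendrocytes and by choroid plexus, and had the largest spread over mice (SD 1.31 log2 units). It was at 2713, 357, 933 and 1248 CPM in Con+Con and at 259.5, 369.8, 1318 and 937 CPM in Con+Foxp2. It was at 297, 3228, 266 and 328 CPM in BACHD+Con and at 387, 192, 1897 and 373 CPM in BACHD+Foxp2. The 7 libraries highest in Enpp2 (933 to 3228 CPM) were the 7 highest in Ttr, the main secreted protein of choroid plexus (2588 to 10114 CPM). The other 9 had 192 to 387 CPM of Enpp2 and 89.7 to 376 CPM of Ttr. Cuts of 3 to 8 mice were looked at, and the cut at 7 was picked with the values seen. At cuts of 4, 6 and 8 the highest mice of the 2 genes shared 3, 5 and 7. The 10 choroid plexus and ependyma markers summed to 267 to 7563 CPM in Con+Con, 244 to 3065 in Con+Foxp2, 125 to 10720 in BACHD+Con and 190 to 5038 in BACHD+Foxp2. Trf was highest in Con+Con mice 1 and 4, BACHD+Con mouse 2 and BACHD+Foxp2 mouse 3, at 366, 364, 360 and 312 CPM. Those mice also had the highest of these sums, at 7563, 3369, 10720 and 5038 CPM. Con+Foxp2 mouse 3 came next in the sum, at 3065 CPM, and had 173 CPM of Trf. The part of choroid plexus and ependyma in the values of Enpp2, Trf and the rest of the metabolic group was not tested.

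Lingo1, a partner of the Nogo receptor that restrains oligodendrocyte differentiation, is also made by neurons. It was at 71.4 to 187 CPM in Con+Con, 86.1 to 166 in Con+Foxp2, 49.9 to 188 in BACHD+Con and 91.9 to 172 in BACHD+Foxp2. Its 8 highest libraries (118 to 188 CPM) were the 8 highest in Slc17a7, the vesicular glutamate transporter of cortical neurons (293 to 650 CPM). The other 8 had 49.9 to 100 CPM of Lingo1 and 19.1 to 271 CPM of Slc17a7. Here too cuts of 3 to 8 mice were looked at, and the cut at 8 was picked with the values seen. At cuts of 4, 5 and 7 the highest mice of Lingo1 and Slc17a7 shared 3, 4 and 6. The virus difference for Lingo1 was 0.31 in control mice and 0.26 in BACHD mice, and the median of the 10 cortical markers was 0.40 and 0.74. The part of cortical tissue in these values was not tested.

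**Figure D4:**
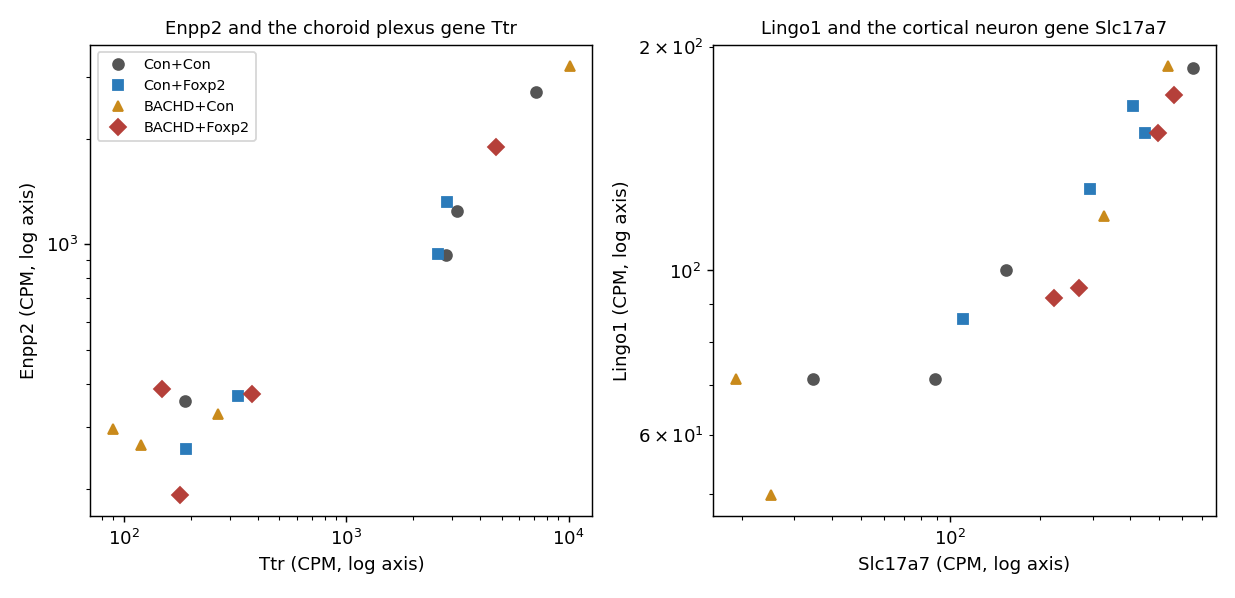
Enpp2 against the choroid plexus gene Ttr (left) and Lingo1 against the cortical neuron gene Slc17a7 (right) in CPM on log axes, 1 point per mouse and symbols by group. The 7 mice with 933 CPM of Enpp2 or more are those with 2588 CPM of Ttr or more, and Lingo1 is highest in the 8 mice with the most Slc17a7.

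The summed levels of neuronal and glial markers also varied between mice and groups. With Foxp2 virus in control mice the 10 striatal projection neuron markers had a median log2 fold change of -0.45, with all 10 lower. Of them 7 were at an unadjusted p under 0.05, against 7.04% of all genes. In BACHD mice their median was -0.23. They summed to 3174 to 6541 CPM in Con+Con, 3390 to 4126 in Con+Foxp2, 3725 to 5947 in BACHD+Con and 3631 to 4869 in BACHD+Foxp2. The 10 cortical markers summed to 294 to 1793 CPM in Con+Con, 507 to 1359 in Con+Foxp2, 212 to 1423 in BACHD+Con and 804 to 1435 in BACHD+Foxp2. The 10 astrocyte markers summed to 7265 to 8844, 8143 to 8538, 6816 to 7332 and 7239 to 8434 CPM in the same order, and the 10 microglia markers to 269 to 331, 316 to 397, 239 to 290.4 and 326 to 384 CPM. Of these, the astrocyte filament gene Gfap (log2 fold change 1.27, adjusted p = 0.00326, edgeR) and the microglial protease Ctss (log2 fold change 0.77, adjusted p = 0.0465) rose with the virus in BACHD mice. There 0.243% of all genes were called. In control mice 0 of either list were called, but 5 astrocyte and 3 microglia markers were higher without overlap, against 5.01% of all genes. Over both genotypes 3 astrocyte markers and 1 microglia marker were called higher, where 1.05% of all genes were called. Without the 3 libraries lowest in cortical markers (BACHD+Con mice 2 and 3 and Con+Con mouse 4) the median of the 33 genes with the virus in control mice was -0.16 and in BACHD mice 0.18. The part of tissue composition in the oligodendrocyte values was not tested.

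Of 30 other mature oligodendrocyte genes 29 were tested and 0 were called in each of the 7 comparisons. With the virus in control mice 21 of 29 were lower (median -0.27), with 6 at an unadjusted p under 0.05, against 7.04% of all genes. In BACHD mice 16 of 29 were higher (median 0.088). The lowest p with the virus in control mice were those of Apod, a lipid carrier (log2 fold change -0.59, SE 0.18, adjusted p = 0.282, edgeR), and Anln, a septin-binding scaffold of the sheath (log2 fold change -1.01, adjusted p = 0.285). In both of these genes the groups did not overlap, which held for 4 of the 29, against 5.01% of all genes. Under control virus 19 of 29 were lower in BACHD mice (median -0.066). At an unadjusted p under 0.05 there were 2 lower and 1 higher, against 3.44% of all genes. Il33 had the lowest p (log2 fold change -0.73, adjusted p = 1, edgeR). Averaged over both viruses 20 of 29 were higher in BACHD mice (median 0.086). Under Foxp2 virus 23 of 29 were higher in BACHD mice (median 0.18), with 0 at an unadjusted p under 0.05, against 4.18% of all genes. The genes of lowest p there were Apod and Nkx6-2, with log2 fold changes of 0.34 and 0.62. The difference of virus effects was 0.89 log2 units for Tmem63a and 0.99 for Nkx6-2. Only 1 of the 29 was at an unadjusted p under 0.05 in that test, against 3.8% of all genes. The virus effect was more positive in BACHD mice for 22 of 29 (median 0.26). Without BACHD+Foxp2 mouse 2 that median was 0.33, with 25 of 29 more positive.

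Of 20 other genes of precursors and newly committed cells 19 were tested and 0 called in any of the 7 comparisons. With the virus in BACHD mice 16 of 19 were higher (median 0.24), and in control mice 11 of 19 (median 0.10). Over both genotypes Pcdh15, a protocadherin of precursors (log2 fold change 0.30, adjusted p = 0.281, edgeR), and Sox5 (log2 fold change 0.50, adjusted p = 0.315) had the lowest p, both higher with Foxp2 virus. Tcf7l2, a factor of differentiating cells that thalamic neurons also express, was lower in BACHD mice over both viruses (log2 fold change -1.17, adjusted p = 0.931, edgeR).

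Axonal partners of myelin and lipid synthesis showed no call either. Of 14 genes for axonal proteins that meet the sheath, 0 were called by edgeR in any comparison. For the virus in control mice 2 were at an unadjusted p under 0.05, against 7.04% of all genes. Over both genotypes Ank3, which anchors sodium channels at the nodes, had the lowest p (log2 fold change -0.23, adjusted p = 0.0905, edgeR). The growth factor Nrg1 followed (log2 fold change 0.56, adjusted p = 0.198). With the virus in control mice Kcna1, a potassium channel beside the nodes, had a log2 fold change of -0.31 without overlap of the groups. This held for 1 of the 14, against 5.01% of all genes. Of 16 genes of myelin lipid and cholesterol synthesis 0 were called. For the virus in control mice 3 were at an unadjusted p under 0.05, against 7.04% of all genes. Degs1, which makes ceramide, had the lowest p over both genotypes (log2 fold change -0.53, SE 0.13, adjusted p = 0.0602, edgeR) and was lower with Foxp2 virus in each (-0.62 in control and -0.44 in BACHD mice).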

How the data were processed

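Striatal mRNA of 16 mice was sequenced, 4 in each of 4 groups, and groups and mouse numbers were taken from the labels. RNA came from an RNeasy Lipid Tissue kit and libraries from Clontech SMARTer chemistry, per the labels' protocols. The authors deposited whole-number read counts, 1 table per mouse with 24421 genes by symbol, and 5 last lines for reads outside genes. Those lines stayed out of library sizes and tests, and 22.5% to 24.7% of the listed reads were assigned to genes. STAR 2.4.0, HTSeq, DESeq2 and mm10 are named in the submitters' processing notes. The sources used here do not state whether strand entered the counting, so overlapping genes are uncertain. The authors also deposited 3 tables of comparisons, with a mean normalized signal, a log2 fold change, a score (the test statistic) and p-values per gene. Their log2 fold changes with standard errors, p-values and adjusted p-values were read.

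All 16 libraries were fitted together with edgeR 4.0.16 in R 4.3.3 (TMM, filterByExpr, quasi-likelihood, 12 residual degrees of freedom), with 7 contrasts and Benjamini-Hochberg adjustment over 13563 genes. Log2 CPM used a prior count of 2. Alternatives were DESeq2 1.42.0, RLE size factors, no filter, limma 3.58.1 with voom, the replicate number as a block, only the 8 libraries compared, and leaving out each library. Leaving out the 3 libraries lowest in cortical markers was added after seeing the data. The genes and lists were chosen with earlier results of these data known. Values in every mouse are given for the 3 genes with the lowest p in each comparison, the 2 with the most reads in each role and both precursor markers. From each of the other lists, genes called or, where none was, the 2 with the lowest p were named for the comparisons described. Some genes of these lists are not reported here. On simulated counts of the virus comparison in control mice (13319 genes), 54.6% of genes changed by 1 on the log2 scale were called, 87% of those changed by 2 and 0.0457% of unchanged genes. No pair of the 16 libraries agreed within counting error. The labels give each sample a mouse number but do not say that dissections were independent, and reads carry no molecular identifiers, so floors cover counting error only. Coordinates are those of GENCODE on GRCm38, which is mm10.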

Additional observations from a re-analysis of the deposited data

Results flagged for a closer look

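A mouse far from the other 3 of its group was looked for with Dixon's ratio at its 95% critical value for 4 mice, over the 33 genes and the summed lists in each group. Of 196 such sets 17 passed, and chance flags about 1 in 20. BACHD+Foxp2 mouse 2 was low for Cldn11 (38.9 CPM, the other 3 at 117 to 121), Ermn (75.3 CPM, the others at 149 to 162), Plekhb1 (136 CPM, the others at 304 to 327) and Bcas1 (190 CPM, the others at 403 to 433). Con+Foxp2 mouse 1 was low for Mal (172 CPM, the others at 271 to 291) and Ugt8a (45.7 CPM, the others at 68.3 to 71.7). BACHD+Con mouse 2 was high for Opalin (36.3 CPM, the others at 13.9 to 17.2) and Enpp2 (3228 CPM, the others at 266 to 328). In the same mouse the summed metabolic genes, which include Enpp2, were at 4006 CPM and the summed choroid plexus and ependyma markers at 10720 CPM. BACHD+Foxp2 mouse 3 was high for Enpp2 (1897 CPM, the others at 192 to 387), the choroid plexus and ependyma sum (5038 CPM) and the Schwann cell sum (36.8 CPM). The Schwann cell sum was also high in Con+Foxp2 mouse 3, at 49.7 CPM. Con+Con mouse 3 was low for Tspan2 (66.2 CPM, the others at 114 to 119), and Con+Con mouse 4 was low for St18 (47.2 CPM, the others at 51.0 to 51.8). BACHD+Foxp2 mouse 4 was high for Mbnl2 (414 CPM, the others at 332 to 341).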

How the results depend on the processing

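In 158 fits of a comparison under 23 alternatives, 0 called any of the 33 genes, and the genes with the lowest p kept their direction in each. Under every alternative the median log2 fold change of the 33 moved from its value with all mice in edgeR by less than the spread between mice (pooled SD 0.35). That spread is at least as large as each of the medians themselves. A median could therefore reach 0 within it, and this measure does not show the medians to be stable. Leaving out each mouse in turn, it ran from -0.38 to -0.17 for the virus in control mice, -0.010 to 0.33 in BACHD mice, -0.34 to -0.092 for the genotype under control virus, 0.048 to 0.38 under Foxp2 virus, 0.24 to 0.57 for the interaction, -0.18 to -0.020 for the averaged virus and -0.084 to 0.094 for the averaged genotype. The number of genes called over the whole table moved more, and the cause was not tested. For the virus in control mice (31 genes) DESeq2 called 79, the fit without a filter 75 and the replicate block 20. In BACHD mice (33 genes) DESeq2 called 62, the fit without a filter 53, the 8 libraries alone 19, and the fit without the 3 libraries lowest in cortical markers 6. With that last setting the averaged virus gave 61 (143 with all mice), where DESeq2 gave 234. For the genotype under control virus (2 genes) limma voom, the replicate block and the fit without those 3 libraries each gave 1, and under Foxp2 virus (8 genes) DESeq2 gave 15. The interaction (0 genes, 516 at an unadjusted p under 0.05 by edgeR) had 3 with DESeq2 and 3 without a filter, and the averaged genotype (5 genes) 8 without a filter. Leaving out single mice gave 10 to 46 genes, 9 to 32, 1 to 2, 4 to 10, 0 to 1, 102 to 202 and 4 to 6, in the same order of comparisons. Same-numbered mice of different groups did not deviate together (r of -0.168 to 0.102 over 24 pairs, 2 of them over 0.1), so the numbers do not pair the mice. The replicate block moved no other count of calls by over 1.5 times. At a median of 3014099.5 gene reads and 4 mice per group, the test called 54.6% of genes simulated with a change of 1 on the log2 scale. The fitted differences of the 33 genes in the virus comparison in control mice were all smaller than that change. Changed genes were simulated only at 1 and 2 and were drawn from all tested genes. The share that would be called at the sizes fitted for the 33 genes is therefore not known.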
